A study of Mus musculus with 4 samples.

Results

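The transcripts described here encode the subunits of the kinase complex that starts autophagy, together with the related kinase Ulk3, which is not a core subunit. They were chosen by name, and the 6 genes, called the ULK initiation genes below, are Ulk1, Ulk2, Ulk3, Rb1cc1, Atg13 and Atg101. Deposited peaks with a fold change exist for 5 of the 6, which hold 8 of the 31 peaks and are 5 of the 22 genes in the authors' deposited table of autophagy genes. Ulk2 is the member without a row there.

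N6-methyladenosine (m6A), a methyl mark on adenosines inside RNA, was mapped in MIN6 cells, a mouse insulinoma line labelled C57BL/6 that serves as a beta-cell model. One arm received a GR expression vector and the other the control vector, with 10 µg plasmid per dish and RNA taken 24 hours later. GR is read here as the glucocorticoid receptor, which the labels do not spell out. Each arm gave 1 library from immunoprecipitation with an anti-m6A antibody and 1 input library, so the study has 4 libraries and no replicates. No test between arms was possible here, and no peak comes with a p-value. The files used here hold the finished comparison of GR with control, with no value for any single library. Sequencing depth, the error of a fold, the level of GR and the RNA level of each gene are therefore unknown, and less m6A on a transcript and less of the transcript cannot be told apart.

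Autophagy begins when a complex of a ULK kinase, the scaffold FIP200 (encoded by Rb1cc1) and the adaptors ATG13 and ATG101 is released from inhibition by mTORC1 and phosphorylates partners at the site where the phagophore forms. AMPK acts on the complex as an energy sensor, and FIP200 also binds cargo receptors. Beta cells use autophagy to clear damaged organelles and surplus secretory granules. On messenger RNA, m6A is found mainly around stop codons, in 3' UTRs and in long internal exons, and bound reader proteins affect the stability and translation of the transcript.

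A short stretch of Atg101 is shown because it is the single place where a member's deposited peak overlaps the sequence used here. It covers the first 30 bases of the 5' UTR peak, chr15:101284314-101284343 on the plus strand (RefSeq sequence of GRCm38.p6, the assembly behind mm10). The capitals mark GGAC, the core of the common m6A consensus.
Atg101 5' UTR: gcctGGACcggcgtctgtagggtctGGACt

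The peak starts 13 bases after the RefSeq start of Atg101 and is 131 bases wide, of which 37 lie inside the RefSeq start window. GGAC occurs at positions 5 and 26 of the printed stretch, counted from its 5' end, and nowhere else in the 37 bases on that strand. Of 32851 RefSeq start windows cut to the same 37 bases, 14.3% hold GGAC on the transcribed strand, 25.6% hold it on either strand and 1.11% hold it at least 2 times on the transcribed strand. Among the 5 members with a start window, the transcribed strand of Atg101 held the motif, while those of Ulk1, Ulk2, Ulk3 and Atg13 did not. Ulk3 had it on the opposite strand. Rb1cc1 had no window. A match of letters does not show that a base is methylated, and antibodies to m6A also bind the methylated adenosine beside the cap, which these data do not separate from m6A inside the transcript.

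All 8 peaks of the ULK initiation genes had a negative log2 fold change in the authors' deposited table, meaning a lower signal in GR cells than in control cells as the comparison is named. The same held for 100% of the 31 peaks of that table, so the direction is not particular to these genes, and the authors chose which autophagy genes the table holds. A log2 fold change of -1 or lower was deposited for 7 of the 8 peaks, beside 83.9% of all peaks in the table. Their median was -1.54, or 2.91-fold lower in GR cells, with a range from -3.60 to -0.78. The other 23 peaks of the authors' deposited table had a median of -1.47 and a range from -2.17 to -0.55. The ULK initiation peaks thus lay within the range of the other peaks, except for a single peak of Rb1cc1. Without that peak their median was -1.34, on the other side of the median of the other genes. Leaving out the peak of Ulk3 in its place would also move the median to that side.

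**Figure D1:**
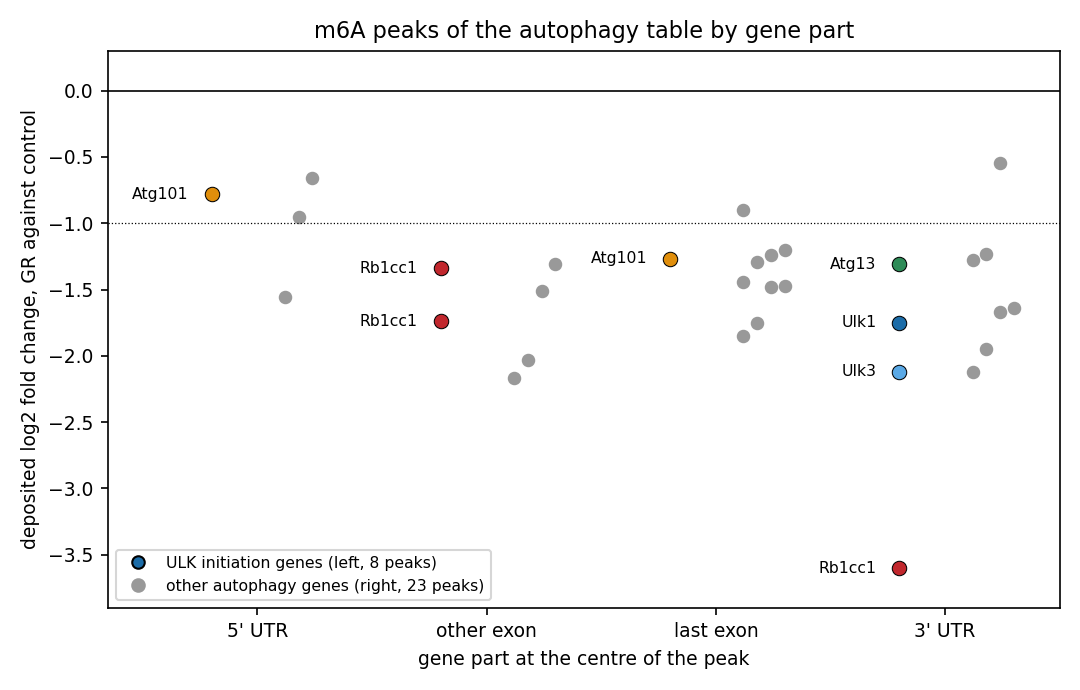
Deposited log2 fold change (GR against control, vertical axis) of each peak by the gene part at its centre; each point is 1 peak with no error available, coloured and named points are the ULK initiation genes and grey points the other autophagy genes, and the dotted line is at -1. All points lie below 0, Atg101 has the one ULK initiation peak above -1 (-0.78), and the Rb1cc1 3' UTR peak at -3.60 stands below every other point.

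Among the kinases, Ulk3 had the lowest peak. It covers chr9:57595013-57595454, 442 bases that begin, centre and end in the 3' UTR, and its log2 fold change in the authors' deposited table was -2.12, or 4.34-fold lower in GR cells. It ranked 4 of 31 from the lowest, after peaks of Rb1cc1, Atg4c and Atg9a. Ulk3 encodes a kinase related to ULK1 that acts in Hedgehog signalling and has been tied to autophagy.

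Ulk1 encodes the kinase that gives the complex its activity. Its only deposited peak spans 605 bases at chr5:110785578-110786182, starts in the last exon and has its centre and end in the 3' UTR. The authors' deposited table gives it a log2 fold change of -1.75, which is 3.36-fold lower in GR cells and rank 8 of 31. Ulk2, the close relative that can stand in for Ulk1, had no peak in the autophagy table, no line in the gene table and no mention in the GO or KEGG gene lists. Absence from these tables does not show that m6A on Ulk2 was unchanged, since the peaks that did not pass the authors' selection are not in the files used.

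Rb1cc1 had 3 peaks, more than any other gene of the autophagy table, and they differed widely. In exon 7 the peak at chr1:6240039-6240369 had a deposited log2 fold change of -1.34, or 2.53-fold lower in GR cells. In exon 15 the peak at chr1:6248285-6250150 was the widest of the whole table, with 1866 bases, and stood at -1.74 in the authors' deposited table, or 3.35-fold lower. In the 3' UTR a narrow peak of 163 bases at chr1:6274960-6275122 stood at -3.60 in the authors' deposited table, or 12.1-fold lower.

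The 3' UTR peak of Rb1cc1 was the lowest of all 31, and 1.43 log2 units separated it from the next, the exon 5 peak of Atg4c. Set against its own gene, it was 1.86 log2 units (3.62-fold) below the exon 15 peak and 2.26 units (4.79-fold) below the exon 7 peak. The exon 7 and exon 15 peaks were 0.40 log2 units apart. Whether the size of the 3' UTR value reflects few reads in one library could not be examined, because no counts are in the files used.

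The adaptor genes had the milder values. Atg13, whose product links the kinase to FIP200 and is a target of mTORC1, had 1 peak of 647 bases at chr2:91675775-91676421, which runs from the last exon into the 3' UTR. Its deposited log2 fold change was -1.31, or 2.48-fold lower in GR cells, at rank 20 of 31. Atg101 encodes the partner that stabilises ATG13. Its last-exon peak at chr15:101290359-101290863, 505 bases wide and ending in the 3' UTR, was at -1.27 in the authors' deposited table, or 2.41-fold lower in GR cells. The 5' UTR peak shown above, at chr15:101284314-101284444, was at -0.78 in the authors' deposited table, or 1.71-fold lower, which ranked 29 of 31.

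By role, the medians of the deposited log2 fold changes were -1.93 for the 2 kinase peaks (Ulk1 and Ulk3), -1.74 for the 3 Rb1cc1 peaks and -1.27 for the 3 adaptor peaks. These medians rest on 2 or 3 peaks each and have no error. Ulk3 is not a core subunit, and the Ulk1 peak alone (-1.75) was level with the Rb1cc1 median. All of the kinase peaks were lower than all of the adaptor peaks, whereas the exon 7 peak of Rb1cc1 lay next to that of Atg13. Both kinase peaks were centred in the 3' UTR, and the adaptor peaks in the 5' UTR, last exon and 3' UTR. Over the whole autophagy table, the medians of these parts were -0.86 (5' UTR), -1.37 (last exon) and -1.67 (3' UTR). Role apart from gene part was not tested.

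Each of the 5 genes had 1 peak near its 3' end. Taken at the centre, 4 of these peaks were in the 3' UTR (Ulk1, Ulk3, Rb1cc1 and Atg13) and 1 in the last exon (Atg101). The distance from the centre of the peak to the RefSeq end of the gene was 336 bases for Atg101, 1000 for Ulk3, 1334 for Rb1cc1, 1391 for Ulk1 and 1486 for Atg13. For the 15 such peaks of the other autophagy genes with a known strand, the median distance was 1080 bases, with a range from 366 to 38461. The remaining 3 peaks of the ULK initiation genes were the 5' UTR peak of Atg101 and the internal exon peaks of Rb1cc1. No other RefSeq gene overlapped any of the 8 peaks.

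**Figure D2:**
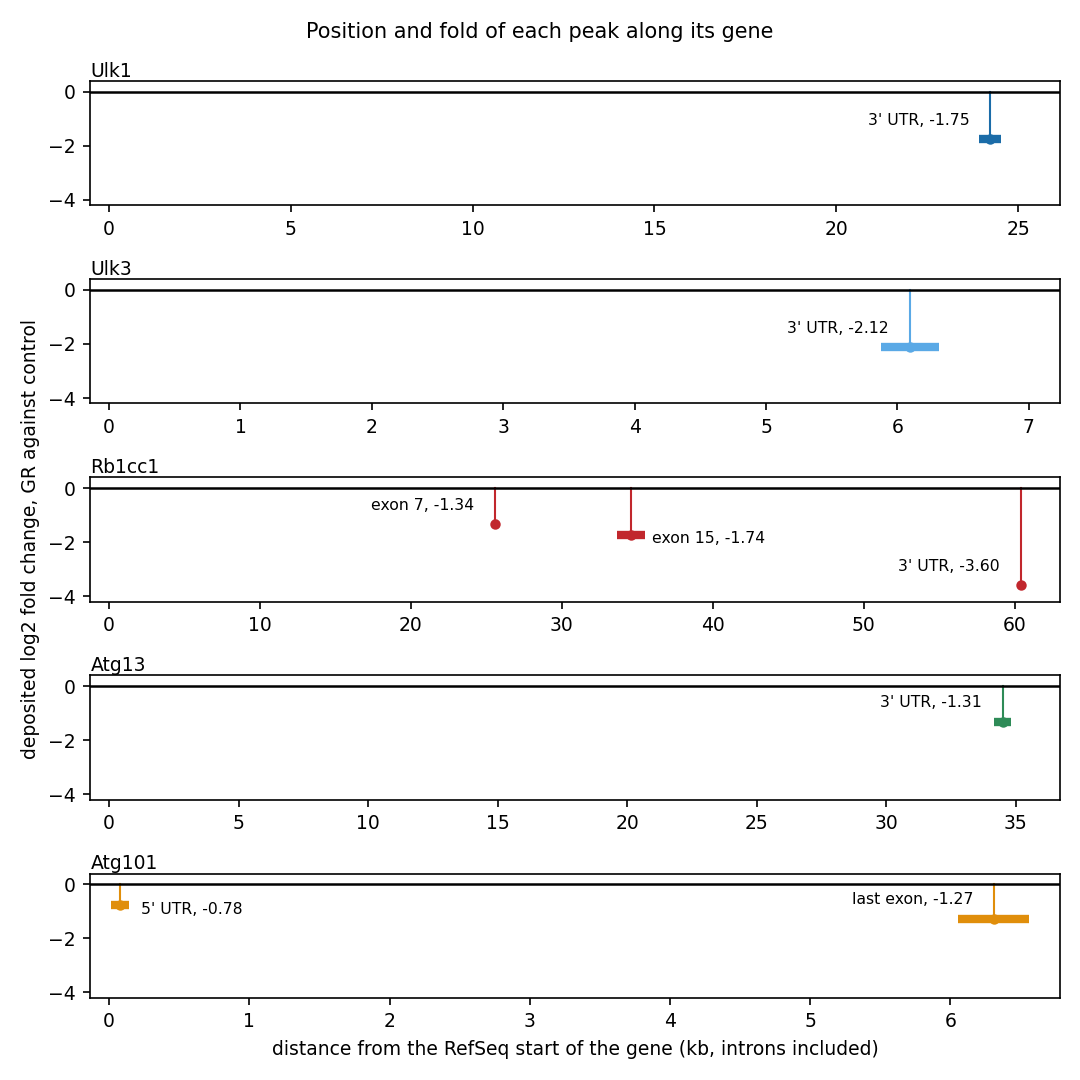
Position of each deposited peak along its gene (horizontal axis, kb from the RefSeq start, introns included, a different scale for each gene) and its deposited log2 fold change (GR against control, vertical axis); a horizontal bar is the width of the peak and a dot its centre. Each gene has a peak close to its 3' end, and the last peaks of Rb1cc1 (-3.60) and Atg101 (-1.27) are lower than the earlier ones.

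In both members with several peaks, the lowest peak was the one nearest the 3' end. In Atg101 the last-exon peak was 0.50 log2 units (1.41-fold) below the 5' UTR peak, 6232 bases apart in the genome. Outside these genes, 5 of 6 genes with several peaks in the authors' deposited table had the same order, Atg4c being the exception, so the order is not particular to the ULK initiation genes. Their gaps ran from 0.17 log2 units in Atg12 to 0.90 in Ppp2ca, with no error available. In Pik3r4 the later peak was in exon 4, only 17.1% along the gene, and so not near the 3' end.

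A second deposited table names genes related to differential peaks on 17052 lines, without fold, direction or position. It listed 2 of the 6 members (33.3%), Ulk3 and Atg101, each on 2 lines. For comparison, 25.2% of 21900 protein-coding RefSeq genes were listed, and 44.5% of the listed ones had at least 2 lines, so neither the share nor the number of lines stands out. Ulk3 had 2 lines for 1 deposited peak and Atg101 had 2 lines for 2 peaks. Ulk1, Rb1cc1 and Atg13 were not listed, although the authors' deposited autophagy table gives them 5 peaks between them, the lowest peak of that table among these. Of all 22 genes of the autophagy table, 9 (40.9%) were listed, so such an absence is not particular to these members. The 2 tables therefore did not select genes in the same way, and the rule behind either is not stated.

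The gene ontology (GO) table and the KEGG pathway table carry these gaps on, since Ulk3 and Atg101 are the only members in their gene lists. Ulk3 was in 101 GO terms and Atg101 in 28, and 25 terms held both. The term named Atg1/ULK1 kinase complex was present with 1 of 8 background genes, and that gene was Smcr8, which encodes a partner of C9ORF72 known to bind the ULK complex. No member was in its gene list, although Atg101 was in the gene table. Every GO term had p = 1 in the authors' deposited table, so no term can be ranked by it.

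The narrowest term with both genes was the phagophore assembly site, where autophagosomes form, with 10 of 33 background genes (30.3%). Besides Ulk3 and Atg101 these were Atg12, Becn1, Pik3c3, Rab7, Sqstm1, Stbd1, Wdr45b and Zfyve1. Autophagosome assembly had 38 of 92 genes (41.3%), autophagosome organization 38 of 95 (40.0%), vacuole organization 61 of 154 (39.6%) and macroautophagy 76 of 187 (40.6%). The wider terms were autophagy and process utilizing autophagic mechanism, each with 132 of 367 genes (36.0%), organelle assembly (227 of 756), cellular catabolic process (638 of 1933) and catabolic process (713 of 2183). Over all terms, 26.0% of the 20770 background genes (5409) were in at least 1 gene list. The deposited count of genes with a peak over all terms was 10022, and the reason for the difference is unknown. Set against the same 20770 genes, that count would give a share above every term share given here. General terms lay on either side of 26.0%, such as organelle organization (34.3%, both genes) and membrane (22.7%, Ulk3 alone). These examples were picked with the values known. Among the terms with both genes, the lowest share was 26.6% (cellular process). Whether the autophagy terms exceed the share over all terms was not tested. These shares count listed genes, and do not cover Ulk1, Rb1cc1 and Atg13.

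In KEGG, the longevity regulating pathway held both Ulk3 and Atg101, where the authors' deposited table has 40 input and 96 background genes and an adjusted p of 0.000124. By p it ranked 91 of the 290 pathways of that table. Ulk3 alone was in mTOR signaling, where the authors' deposited table has 84 input gene IDs (69 distinct Entrez genes), 156 background genes and an adjusted p of 3.98e-12, at rank 11 of 290. The input count thus holds repeated genes, and their effect on this p and rank was not tested. Regulation of autophagy, also with Ulk3 alone, had 11 input and 40 background genes in the authors' deposited table, with an adjusted p of 0.213 and rank 225 of 290. The share of input genes over all KEGG genes was not computed, so these counts stand without a background.

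Genes that act on or with the complex were set beside it in 3 lists. Of 17 upstream regulators, 2 had deposited peaks, namely the protein phosphatase 2A catalytic subunits Ppp2ca (-0.95 in the 5' UTR and -1.85 in the last exon) and Ppp2cb (-0.66 in the 5' UTR) in the authors' deposited table. A further 4 were in the gene table without a peak (23.5%, against 25.2% of protein-coding genes). These were Rheb, the GTPase that activates mTORC1, the AMPK subunit genes Prkab1 and Prkag1, and Ambra1, which promotes ubiquitination of ULK1. The other 11 were in neither table. They were Mtor, Rptor, Mlst8, Tsc1, Tsc2, Stk11 and Traf6, with the AMPK genes Prkaa1 and Prkaa2 (catalytic), Prkab2 and Prkag2.

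Of 15 downstream partners and targets, 6 had a total of 8 deposited peaks, with a median log2 fold change of -1.48 beside the -1.54 of the ULK initiation genes. The lowest were Atg9a, the lipid scramblase of the first membrane vesicles (-2.12), and Pik3r4, a regulatory subunit of the class III PI3-kinase (-2.03 in exon 4 and -1.31 in exon 2), in the authors' deposited table. Its catalytic partner Pik3c3 was at -1.95 in the authors' deposited table. Uvrag, a subunit of the PI3-kinase complex that acts on later membranes (-1.64 and -1.20), and the lipid transfer genes Atg2b (-1.28) and Atg2a (-1.24) followed in the authors' deposited table. The gene table listed 6 of the 15 (40.0%, against 25.2% of protein-coding genes), Pik3c3 and Pik3r4 with peaks, and Becn1, Nrbf2, Wdr45b and Fundc1 without.

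In the list of FIP200 cargo receptors and LC3 family genes, 3 of 12 had deposited peaks. They were Map1lc3b (-1.75 and -1.48 in the last exon), Map1lc3a (-1.56 in the 5' UTR) and Gabarapl1 (-1.29 in the last exon) in the authors' deposited table. The gene table listed 4 of the 12 (33.3%, against the same 25.2%), adding the cargo receptor Sqstm1 and the LC3 relative Gabarap. Neither table held the receptors Nbr1, Optn, Tax1bp1, Calcoco1 and Ccpg1, the kinase Tbk1 or Gabarapl2.

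**Figure D3:**
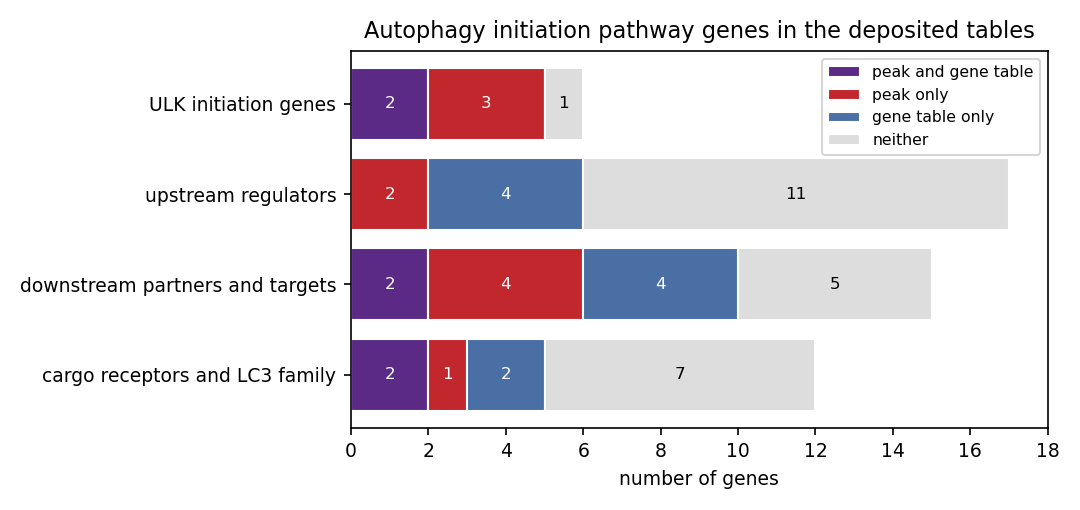
Number of genes (horizontal axis) of the ULK initiation group and of 3 lists around it by where they appear in the deposited tables: with a peak and in the gene table, with a peak only, in the gene table only, or in neither. A peak was present for 5 of 6 ULK initiation genes and 2 of 17 upstream regulators. The counts were 6 of 15 for downstream partners and 3 of 12 for receptors and LC3 family genes. Only genes that the authors chose for their autophagy table can have a peak here, so these counts do not compare the groups. In the same order, the shares in the gene table were 33.3%, 23.5%, 40.0% and 33.3%.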

How the data were processed

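Libraries were made from MIN6 RNA fragmented to about 100 bases and read in pairs of 150 bases, per the labels' protocols. Tools named per the submitters' processing notes are BWA 0.7.12 and HOMER 4.9.1, with the build mm10; the caller of differential peaks, its thresholds and what its folds were scaled to are not given in the sources used here. The authors' deposited log2 fold change per peak was taken as given and handled as a score, because 3 lines separate cells by spaces; lines were split on white space, symbols carried down and 1 pair of run-together gene parts separated. Deposited positions were read as counted from 1, which the table does not state. The p-value and adjusted p-value of each GO term and KEGG pathway were computed by the authors, per the file headers.

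Genes were matched by Ensembl ID (9217 of 9225 listed IDs had a reference symbol), and 63 overflow lines of the GO table were joined to their terms. Chromosomes, gene bounds, strands and start windows came from RefSeq tables of GRCm38.p6; strands of genes without a start window, Rb1cc1 among them, came from the order of their deposited gene parts. The members and lists were chosen with earlier results of these data known. Every member was described, pathway genes were named by having a peak or a line, and GO terms by the most members and fewest background genes, at most 10. Smcr8 and genes named as absent were chosen after the tables were seen. Python 3.11.15 and Matplotlib 3.10.9 were used, and the readers were tested on simulated data. Alternatives were a fold limit, genes in place of peaks, merged peaks, other summaries per gene, matching by symbol and the complex without Ulk3.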

Additional observations from a re-analysis of the deposited data

How the results depend on the processing

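No paired analysis was possible because each arm had 1 library of each kind and the files hold no value per library. The 8 lower peaks of the ULK initiation genes were 7 with an absolute log2 fold change of at least 1, 8 after merging overlapping or touching peaks, and 5 when genes were counted in place of peaks. The median log2 fold change of -1.54 was -1.74 over peaks at or past 1 in absolute value, -1.75 with the largest absolute fold of each gene, -1.75 with the mean of each gene, -1.75 over peaks centred in a 3' UTR or last exon, and -1.34 without the lowest peak (Rb1cc1). The other autophagy genes were not summarised in the same ways, so the values of -1.74 and -1.75 are not matched to their median of -1.47 over all peaks. Those genes had a median of -1.64 over peaks centred in the 3' UTR. No setting could turn the direction, since the table holds no higher peak. The 2 members in the gene table were 2 when matched by deposited symbol and 1 without Ulk3. Depth and replicate error are unknown for every value.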

Other observations

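Ulk3 also stood among Hedgehog signalling genes, which were looked up after the tables were seen. The GO table lists it under negative regulation of smoothened signaling (9 of 29 background genes, 31.0%) and under positive regulation of the same pathway (11 of 36, 30.6%). The wider term for regulation of the pathway had 20 of 76 (26.3%). Beside these, 26.0% of background genes were in any term's gene list, and the deposited count over all terms would give a higher share. The negative regulation term also held Ptch1, the Hedgehog receptor, with Gpr161, Prkaca and others. The positive regulation term held the ligand gene Shh with Foxa1, Foxa2, Scube2, Gas8 and others. The whole smoothened signaling term had 39 of 132 genes (29.5%), among them the beta-cell transcription factors Pdx1, Nkx6-1, Nkx2-2 and Pax6. In the gene table, which lists 25.2% of protein-coding genes, Smo, Gli1, Gli2, Gli3 and Sufu had no line. They form the core of the pathway below the receptor. Ulk4 and Stk36, the other relatives of the ULK kinases, had no line either. At that share a few absent genes do not stand out, and a split within the pathway was not tested. None of these genes has a fold or a direction in the files used, apart from the 3' UTR peak of Ulk3. Smcr8, the single gene of the ULK1 kinase complex term, had 5 lines in the gene table.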
